A study of Mus musculus with 6 samples.

Results

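Transcription factor NRF2, the product of *Nfe2l2*, switches on genes that protect cells from oxidants and reactive chemicals. In resting cells the adaptor KEAP1 holds NRF2 and has it degraded. When KEAP1 is modified by oxidants or electrophiles, NRF2 enters the nucleus, pairs with a small MAF protein and binds antioxidant response elements. Its activity is thus set mostly through the protein, and the transcripts of its target genes are a common readout. Macrophages raise these genes during the response to lipopolysaccharide (LPS), in which glutathione and thioredoxin buffer the oxidants that the cells make. *Nfe2l2* and 9 of its best known targets, *Hmox1*, *Nqo1*, *Gclm*, *Gclc*, *Txnrd1*, *Srxn1*, *Slc7a11*, *Prdx1* and *Gsr*, are described here. They were chosen by symbol, with earlier results of these data known, and all 10 were found among the 15415 genes of the deposited table.

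RNA was sequenced from peritoneal macrophages (PEMs), which gather in the peritoneal cavity after starch is injected, in 6 libraries. Knockout libraries 1 to 3 have the genotype LysM-Cre; Tim-4 fl/fl, in which Cre made from the *Lyz2* locus removes the loxP-flanked part of *Timd4*, the gene of Tim-4, in myeloid cells. Control libraries 1 to 3 are Tim-4 fl/fl and carry the same floxed alleles without Cre, so an effect of the Cre allele and of the deletion cannot be told apart. The study used young male C57BL/6J mice, and the labels give LPS as the treatment of both groups, while the methods do not say whether the sequenced cells received it. Titles and genotype entries of the labels contradict each other on which group is the knockout, and the titles were followed. *Timd4* was lower in every library titled as knockout than in any control, as given below. Neither the labels nor the methods say whether each library came from its own mouse, so p-values measure the spread between these libraries, which may in part be technical. The smallest p that an exact permutation test (two-sided) allows for groups of 3 is 0.1.

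Between 36170767 and 42217558 reads per library fell on the listed genes. *Timd4* was at 0.246 to 0.394 FPKM (reads scaled by gene length and library size) in the knockout libraries but 19.5, 12.0 and 1.19 FPKM in control libraries 1 to 3, so control library 3 held far less of it than the other controls. *Lyz2* reached 41.4, 4656 and 106 FPKM in the knockout group, libraries 1 to 3, but 7090 FPKM or higher in each control, so knockout library 2 stood apart. Neither gene passed the test in limma (adjusted p = 0.0715 for *Timd4* and 0.103 for *Lyz2*). The 5 macrophage markers (*Adgre1*, *Cd68*, *Csf1r*, *Itgam*, *Mertk*) were detected in every library, with a summed level of 1634 to 2434 FPKM, and none of them passed the test. The largest part of this sum in every library was *Cd68*, which was higher in every knockout library than in any control (means of 1642 and 1091 FPKM), whereas *Csf1r* was lower in every one (105 and 168 FPKM). Over all 9030 genes tested, 428 were lower and 232 were higher in the knockout libraries (limma, adjusted p below 0.05), together 7.31%. After the libraries were rescaled to equal medians these counts were 346 and 327, because the rescaling brought the all-gene median, on the log2 scale, from -0.11 to -0.0045. In bulk RNA, fewer cells of a type and less RNA per cell cannot be told apart.

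All 9 target genes fell in the knockout libraries, while *Nfe2l2* itself did not pass the test. Of the 10 genes, 9 were lower at an adjusted p below 0.05, against 4.74% of all tested genes. Their median log2 fold change was -1.74, against -0.11 over all tested genes. The genes were chosen with earlier results of these data known, so the shares are a description and not a test of the set. The falls ran from 2.43-fold in *Txnrd1* to 8.35-fold in *Nqo1*, as ratios of group means. By the size of the decrease, *Nqo1* took place 20, *Gclc* place 27 and *Gclm* place 35 among the 9030 genes. In 9 of the 10 genes the highest knockout library lay below the lowest control, which held for 23.0% of all tested genes, and in 0 of the 10 was the order the other way round, as in 11.1% of all tested genes. The log2 fold changes of the 10 genes after the rescaling were between -2.59 and -0.16, and the same 9 genes passed.

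**Figure D1:**
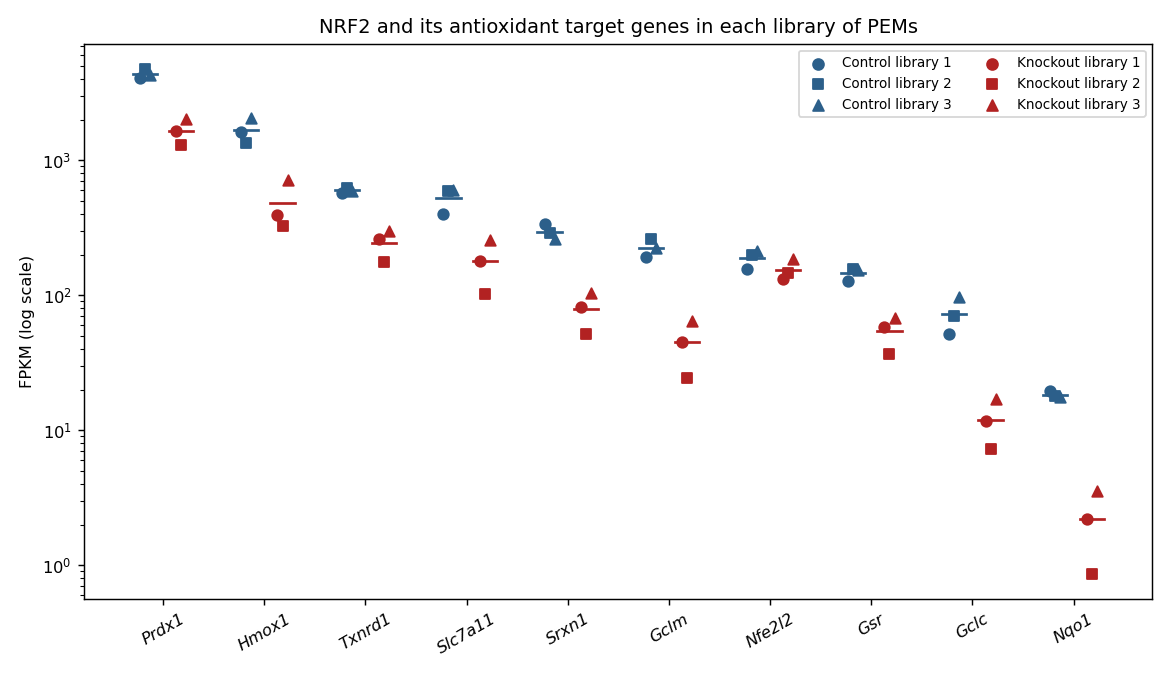
FPKM (log scale) of *Nfe2l2* and its 9 target genes, ordered by their mean in the controls, with 1 point per library (circle, square and triangle for libraries 1, 2 and 3) and a line at each group mean. The red knockout points lie below all blue control points in every gene but *Nfe2l2*, and the triangle of knockout library 3 is the highest knockout point in all 10 genes.

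The calls depended on single libraries, although the fold changes did not change much. All 9 targets were past the threshold when knockout library 3, control library 1 or control library 3 was left out. Without knockout library 1 or without control library 2, 0 of the 10 genes passed in limma, and 9 had an unadjusted p below 0.05 in each of these fits. Without knockout library 2, 7 passed, and *Hmox1* and *Slc7a11* were at adjusted p = 0.0782 and 0.0899. The number of all genes past the threshold fell as well, from 660 to 30, 8 and 63 in these 3 fits. The median log2 fold change of the 10 genes stayed between -2.05 and -1.45 in the 6 fits that each left out 1 library.

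**Figure D2:**
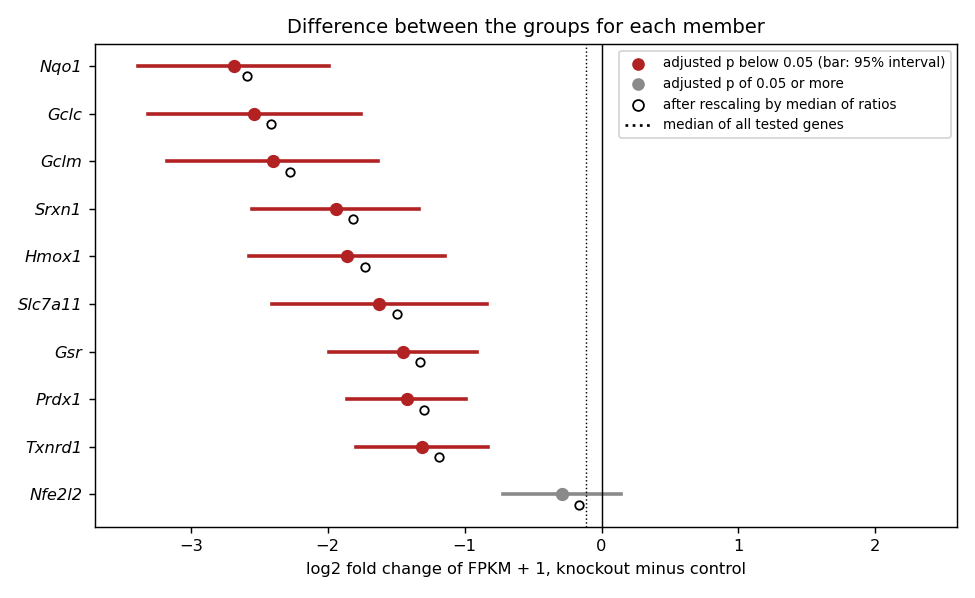
Log2 fold change of FPKM + 1 (knockout minus control) for each gene with its 95% confidence interval from limma. Open circles give the value after rescaling by the median of ratios, and the dotted line marks the median of all tested genes at -0.11. The intervals of the 9 targets lie below 0, and that of *Nfe2l2* crosses it.

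Promoter sequences were read for the members from RefSeq (build GRCm38.p6), as windows from 250 bases before to 50 bases after each annotated start. The table held 7 of the 10 genes; *Hmox1*, *Gclc* and *Gsr* were not among them. Both strands were searched for the core antioxidant response element, TGACNNNGC. Positions give the first base of a match along the strand of the gene, also where the match is read on the opposite strand. It was found in 5 of the 7 genes, namely *Nfe2l2*, *Gclm*, *Txnrd1*, *Srxn1* and *Prdx1*, against 14.0% of all 27025 genes and 17.5% of the tested genes in the table. Of the other pathway genes described further below, 18 of the 71 in the table (25.4%) held it. The letters can overlap the AP-1 site TGACTCA, as in *Prdx1*, where the match reads TGACTCAGC on the opposite strand and starts at position -133. In *Gclm* the match reads TGACGGTGC on the opposite strand and starts at position -134, and in *Nfe2l2* it reads TGACTCCGC and starts at position -240. *Txnrd1* has 3 annotated starts, and the window of the second holds TGACAAAGC on the opposite strand at position -92. In *Srxn1* the match TGACCTAGC, on the opposite strand, lies after the start, at position 29. A match is a description of the letters and not evidence of binding, and elements farther from the start were not searched. The 250 bases before the start are given for the 4 genes with a match there, and for *Nqo1*, the gene with the largest fall, which has none. They are chr4:116685349-116685598 (+ strand) for *Prdx1*, chr3:122245307-122245556 (+ strand) for *Gclm*, chr10:82858956-82859205 (+ strand) for *Txnrd1*, chr2:75704664-75704913 (- strand) for *Nfe2l2* and chr8:107403206-107403455 (- strand) for *Nqo1*. Each is written 5′ to 3′ on the strand of the gene, and capitals mark the element.
Prdx1: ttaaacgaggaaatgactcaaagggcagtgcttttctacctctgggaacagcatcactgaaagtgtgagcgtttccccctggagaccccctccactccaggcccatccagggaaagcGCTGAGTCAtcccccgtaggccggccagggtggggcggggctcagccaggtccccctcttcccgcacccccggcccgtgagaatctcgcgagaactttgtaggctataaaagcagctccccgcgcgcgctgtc
Gclm: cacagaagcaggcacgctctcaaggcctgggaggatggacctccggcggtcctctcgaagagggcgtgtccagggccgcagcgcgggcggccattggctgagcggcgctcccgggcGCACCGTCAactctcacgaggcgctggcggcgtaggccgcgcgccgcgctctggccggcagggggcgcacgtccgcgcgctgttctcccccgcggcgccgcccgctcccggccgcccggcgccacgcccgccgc
Txnrd1: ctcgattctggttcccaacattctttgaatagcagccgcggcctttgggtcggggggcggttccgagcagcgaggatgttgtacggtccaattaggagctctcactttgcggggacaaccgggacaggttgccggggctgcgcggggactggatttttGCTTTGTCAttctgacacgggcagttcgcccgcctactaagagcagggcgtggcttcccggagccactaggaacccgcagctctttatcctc
Nfe2l2: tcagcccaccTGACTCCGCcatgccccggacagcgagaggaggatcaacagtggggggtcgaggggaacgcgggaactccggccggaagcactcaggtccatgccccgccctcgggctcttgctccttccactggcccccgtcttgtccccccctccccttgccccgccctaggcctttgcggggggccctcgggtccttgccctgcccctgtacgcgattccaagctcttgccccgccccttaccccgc
Nqo1: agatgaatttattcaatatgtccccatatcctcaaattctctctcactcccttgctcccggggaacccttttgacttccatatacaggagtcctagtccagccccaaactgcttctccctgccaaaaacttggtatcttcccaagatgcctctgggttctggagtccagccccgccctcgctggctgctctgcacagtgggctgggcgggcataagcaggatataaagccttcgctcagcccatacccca

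*Nfe2l2* (Entrez 18024), which encodes the transcription factor, read 132, 145 and 185 FPKM in knockout and 156, 197 and 213 FPKM in control libraries 1 to 3. The groups overlapped, since knockout library 3 was above control library 1. The knockout libraries held 81.8% of the control mean, and in limma the log2 fold change was -0.29 (95% interval -0.72 to 0.14, adjusted p = 0.338). A fall of the size seen in any of the targets lies outside this interval, since the smallest of them was -1.31. Relative to the transcript of the factor, *Nqo1* was at 0.00597 to 0.0191 in the knockout libraries and at 0.0829 to 0.126 in the controls, with no overlap. No test was made of the difference between the changes of these genes.

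Glutathione synthesis begins with cystine, which enters the cell through the exchanger encoded by *Slc7a11* (Entrez 26570). This gene read 179, 103 and 259 FPKM in knockout and 402, 589 and 597 FPKM in control libraries 1 to 3. The lowest control library was 1.55 times the highest knockout library, the narrowest gap among the 9 targets. The log2 fold change in limma was -1.62 (SE 0.34, adjusted p = 0.0341), and it was at adjusted p = 0.0677 without a filter on low values, 0.119 or 0.0899 on dropping the first or the second knockout library and 0.150 on dropping control library 2.

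The next step, the joining of glutamate and cysteine, is the rate-limiting one and is made by an enzyme of 2 subunits. *Gclc* (Entrez 14629), the gene of the catalytic subunit, read 11.6, 7.21 and 17.1 FPKM in knockout and 51.4, 70.3 and 97.2 FPKM in control libraries. *Gclm* (Entrez 14630), the gene of the modifier subunit, read 45.1, 24.5 and 64.6 FPKM in knockout and 193, 260 and 223 FPKM in control libraries. Both genes were about 3 times higher in the lowest control library than in the highest knockout library (3.0 and 2.99 times). Their log2 fold changes were -2.54 and -2.40 (standard errors 0.33 and 0.33, adjusted p = 0.0113 and 0.0124 from limma). Without knockout library 1 both were at adjusted p = 0.0598, and without control library 2 at 0.0878 and 0.0883. Both subunit transcripts kept a like proportion, since *Gclm* was 3.87, 3.39 and 3.78 times *Gclc* in FPKM in the knockout libraries and 3.76, 3.70 and 2.30 times in the controls. The groups overlapped in this ratio, and control library 3 was the one with the lowest value.

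Oxidized glutathione is reduced again by glutathione reductase, the product of *Gsr* (Entrez 14782). It read 58.1, 36.9 and 67.7 FPKM in knockout and 129, 155 and 154 FPKM in control libraries. The groups were apart, with knockout library 2 the lowest, and the controls lay close to each other. The log2 fold change in limma was -1.45 (SE 0.23, adjusted p = 0.0183, 0.0751 without knockout library 1 and 0.0991 without control library 2).

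The 3 targets of the thioredoxin system fell. *Prdx1* (Entrez 18477), a peroxiredoxin that removes hydrogen peroxide and the most abundant of the 10 genes, read 1645, 1287 and 2032 FPKM in knockout and 4094, 4724 and 4292 FPKM in control libraries. *Txnrd1* (Entrez 50493), the cytosolic reductase of thioredoxin, read 263, 175 and 299 FPKM in knockout and 576, 625 and 590 FPKM in control libraries. Sulfiredoxin, which repairs overoxidized peroxiredoxins, is encoded by *Srxn1* (Entrez 76650), which read 81.5, 51.3 and 105 FPKM in knockout and 340, 290 and 260 FPKM in control libraries. In all 3 genes the groups were apart, and the highest control library was 1.09 times the lowest in *Txnrd1*, 1.15 times in *Prdx1* and 1.31 times in *Srxn1*. The log2 fold changes were -1.42 for *Prdx1*, -1.31 for *Txnrd1* and -1.94 for *Srxn1*. Their standard errors were 0.19, 0.21 and 0.26, and their adjusted p were 0.0113, 0.0174 and 0.0121 from limma. Without knockout library 1 the adjusted p were 0.0598, 0.0731 and 0.0598, and without control library 2 they were 0.0830, 0.0981 and 0.0878. *Srxn1* fell further than *Prdx1*, the protein it acts on, in the sense that their FPKM ratio was 0.0398 to 0.0515 in the knockout libraries and 0.0606 to 0.0830 in the controls. In the annotation *Txnrd1* overlaps *Eid3*, which had between 202 and 885 reads against 29717 to 97872 on *Txnrd1*, and *Prdx1* has a pseudogene copy. How reads that match both were counted is not given in the sources used here.

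The other 2 targets act outside both cycles. *Nqo1* (Entrez 18104), a quinone reductase and the gene with the largest fall, read 2.19, 0.869 and 3.53 FPKM in knockout and 19.5, 17.9 and 17.6 FPKM in control libraries. It was the lowest of the 10 genes in both groups, and its smallest value rests on 123 reads. The lowest control was 4.99 times the highest knockout library, the widest gap of the 10 genes. Its log2 fold change in limma was -2.69 (SE 0.30, adjusted p = 0.00828, 0.0521 without knockout library 1 and 0.0807 without control library 2). The pseudocount of 1 makes this fold smaller than it is, and with a pseudocount of 0.1 it was -3.20.

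*Hmox1* (Entrez 15368), whose product heme oxygenase-1 breaks heme down to biliverdin, iron and carbon monoxide, read 392, 327 and 717 FPKM in knockout and 1606, 1345 and 2039 FPKM in control libraries. Knockout library 3 was well above the other knockout libraries and still below every control. The log2 fold change in limma was -1.86 (SE 0.30, adjusted p = 0.0196). On dropping the first or the second knockout library the adjusted p was 0.0932 or 0.0782, and on dropping control library 2 it was 0.0902.

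The order of the levels, which FPKM allows since it is per length, was much the same in both groups. In the controls the means ran from *Prdx1* (4370 ± 322 FPKM, SD, n = 3) over *Hmox1* (1663 ± 351), *Txnrd1* (597 ± 25.4), *Slc7a11* (529 ± 111), *Srxn1* (297 ± 40.4), *Gclm* (226 ± 33.6), *Nfe2l2* (189 ± 29.6), *Gsr* (146 ± 15.1) and *Gclc* (73.0 ± 23.0) to *Nqo1* (18.4 ± 1.03). Among neighbours in this order, *Txnrd1* and *Slc7a11*, *Srxn1* and *Gclm*, and *Gclm* and *Nfe2l2* overlapped in their ranges, and the others did not. In the knockout libraries *Nfe2l2* (154 ± 27.8 FPKM) moved up to place 5 and *Gclm* (44.7 ± 20.1 FPKM) moved down to place 8, below *Gsr* (54.2 ± 15.8 FPKM). Here *Txnrd1* and *Slc7a11*, *Slc7a11* and *Nfe2l2*, *Srxn1* and *Gsr*, and *Gsr* and *Gclm* overlapped.

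The 9 targets also varied together among the knockout libraries. In each of them knockout library 3 was the highest, knockout library 1 came next and knockout library 2 was the lowest, an order that 29.0% of all tested genes had. *Nfe2l2* was the exception, with library 1 lowest. Over the 10 genes, knockout library 3 was 1.27 to 4.07 times knockout library 2 (median 2.12), against a median of 1.09 over all tested genes. Knockout library 2 is the one that kept a high level of *Lyz2*. The controls differed less, by 1.09 to 1.89 times between the lowest and the highest library.

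Markers of other cells moved with the groups. Of the 5 markers of large peritoneal macrophages (*Gata6*, *Timd4*, *Icam2*, *Cd5l*, *Prg4*), the resident type of this cavity, 4 were tested and 3 fell, and their summed level was 9.54 to 18.9 FPKM in the knockout libraries and 87.5 to 238 FPKM in the controls. *Timd4*, the tested marker that did not pass, is the gene that the knockout genotype deletes. Its level in the knockout libraries therefore does not describe the number of these cells, although it is part of the sums. All 4 measured B cell markers of a list of 5 fell, with sums of 2.67 to 5.43 against 26.9 to 113 FPKM, although *Ms4a1* (limma, adjusted p = 0.0419) did not pass after the rescaling (0.0561). All 5 mast cell markers fell as well, with sums of 1.89 to 2.25 against 37.5 to 49.0 FPKM. All 5 of these, with *Timd4*, *Icam2*, *Cd79b* and *Ms4a1*, had a knockout mean below 1 FPKM and were tested because of their level in the controls alone, so the sums, and not the number that fell, describe these lists. Of the 5 neutrophil markers, 4 were tested and *S100a8* fell, while *Ly6g*, the defining one, has no value here, and the sums were 79.3 to 104 against 183 to 211 FPKM. *S100a8* made most of this sum, with means of 54.4 against 161 FPKM, while *Csf3r* had means of 38.7 against 28.1 FPKM with overlapping groups, and *S100a9* and *Retnlg* were at 5.12 FPKM or less. The 6 markers of mesothelial cells and fibroblasts summed to 10.2 to 25.4 FPKM in the knockout libraries and 2.04 to 11.5 FPKM in the controls, with 3 tested and none past the threshold. No T cell or eosinophil marker reached the filter, and their sums were at most 1.50 FPKM.

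The part of these cells in the fall of the 9 targets was not tested. The controls do differ among themselves in some of the markers. In control library 3 the markers of large peritoneal macrophages summed to 87.5 FPKM, against 238 and 166 FPKM in control libraries 1 and 2, and those of B cells to 26.9 FPKM, against 113 and 76.5 FPKM. The 10 genes in that library were at 0.825 to 1.60 times the mean of the other controls, with *Srxn1* lowest and *Gclc* highest. The mast cell markers summed to 37.5, 37.8 and 49.0 FPKM in control libraries 1 to 3, with *Kit* at 0.724, 1.28 and 2.10 FPKM. When control library 3 was left out, all 9 targets passed, with adjusted p from 0.00493 for *Nqo1* to 0.0396 for *Slc7a11* in limma.

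**Figure D3:**
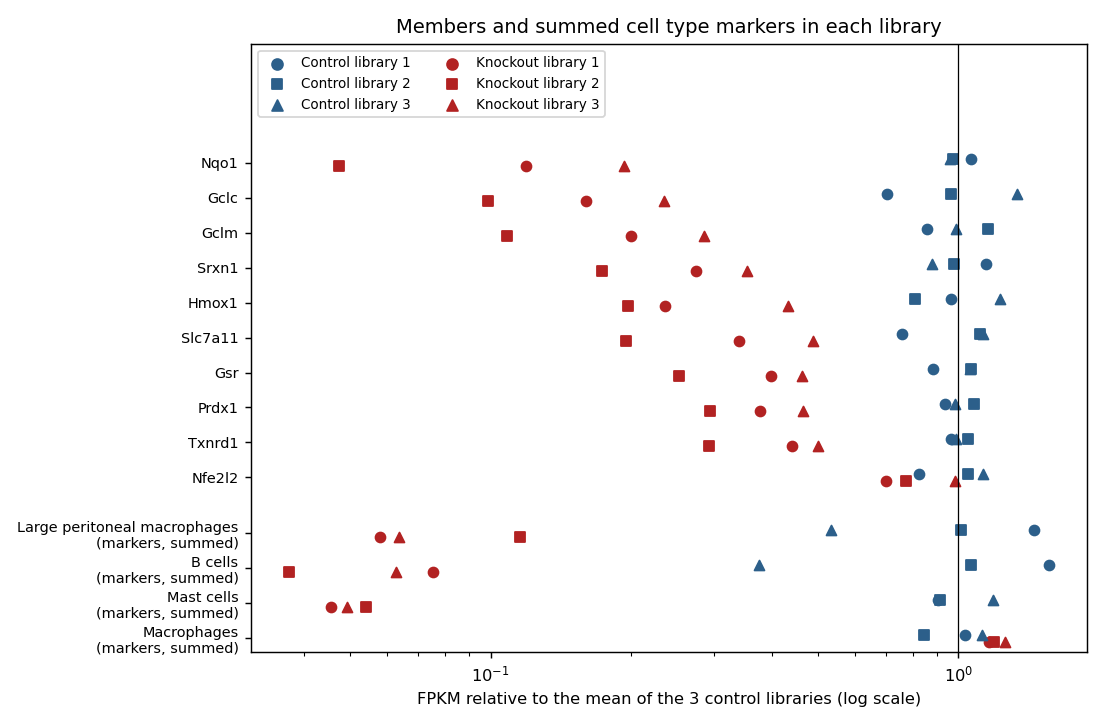
FPKM of each gene, and summed FPKM of 4 marker lists, in each library relative to the mean of the 3 control libraries (log scale, blue for control and red for knockout, shapes for libraries 1 to 3). The 9 targets lie left of all controls in the order of knockout libraries 2, 1 and 3, and the markers of large peritoneal macrophages, B cells and mast cells lie left as well. The sum of the macrophage markers, of which *Cd68* is the largest part, does not.

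Other genes of the pathway were taken from a list of 81, grouped by role, of which 72 reached the filter. Of these, 16 were lower and 2 were higher past the threshold in limma, and 54 did not pass, against 4.74% lower and 2.57% higher among all tested genes. Their median log2 fold change was -0.32. Some of them were tested only because they were high in the controls, and without the filter on low values 12 of 81 were lower and 2 higher. This list too was made with earlier results of these data known, so its shares are a description and not a test. Without control library 2 the number past the threshold was 0 in limma (30 at an unadjusted p below 0.05), without knockout library 1 it was 2 and without knockout library 2 it was 6.

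Among the regulators, 12 of 15 were tested, 1 rose and none fell. *Keap1*, the gene of the NRF2 repressor, read 18.4, 19.6 and 19.1 FPKM in knockout and 18.1, 15.6 and 14.7 FPKM in control libraries (log2 fold change 0.23, adjusted p = 0.279 from limma). *Bach1*, which competes with NRF2 for the element, did not pass, with a 95% interval of its log2 fold change from -0.59 to 0.65 (limma, adjusted p = 0.956). Of the 3 small MAF genes, whose products are the partners of NRF2, only *Mafk* passed. *Mafk* was at 15.3, 15.9 and 11.5 FPKM against 5.75, 5.86 and 5.52 FPKM and rose, with a log2 fold change of 1.17 (limma, adjusted p = 0.0113). *Mafg* was at 18.8, 13.5 and 26.5 FPKM against 25.7, 35.0 and 51.3 FPKM, with overlapping groups (log2 fold change -0.89, limma adjusted p = 0.118). The groups overlapped in *Maff* too, at 13.3, 9.61 and 11.9 against 11.5, 14.0 and 18.6 FPKM (log2 fold change -0.30, limma adjusted p = 0.355).

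Of the 7 genes that supply NADPH, which both reductases consume, 4 fell, among them *Me1*, which reached the filter through the controls alone. *Me1*, the cytosolic malic enzyme, fell from 8.04 ± 1.07 to 0.838 ± 0.492 FPKM (SD, n = 3 each), (log2 fold change -2.32, limma adjusted p = 0.00494). *Pgd* and *Taldo1*, of the pentose phosphate pathway, had log2 fold changes of -1.15 and -0.88, and *Idh1*, the cytosolic isocitrate dehydrogenase, of -1.24 (adjusted p = 0.0196, 0.0443 and 0.0361 from limma). *G6pdx*, the entry enzyme of that pathway, was at 75.9, 76.7 and 93.7 against 111, 96.6 and 110 FPKM and did not pass (adjusted p = 0.142 from limma).

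Of the 14 tested genes of glutathione use and conjugation, 3 fell and 1 rose. *Gss*, which makes the second step of glutathione synthesis, fell from 42.7 ± 12.8 to 7.19 ± 2.23 FPKM (log2 fold change -2.40, adjusted p = 0.00919 from limma). *Gsta3*, a glutathione transferase, had the largest fall of the list (log2 fold change -2.87, adjusted p = 0.00811), and *Esd* fell too (-0.77, adjusted p = 0.0216). *Mgst3* rose from 1.86 ± 0.635 to 5.11 ± 0.621 FPKM (log2 fold change 1.12, adjusted p = 0.0204). Reads of glutathione transferase genes can be shared among their near copies, so the value of *Gsta3* is uncertain. In the group of thioredoxin and peroxide removal, 2 of 13 fell, *Prdx6* with a log2 fold change of -2.37 and catalase (*Cat*) with -1.72 (adjusted p = 0.00651 and 0.0125 from limma). The median of that group was -0.11, the same as over all tested genes.

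Of the 17 tested genes of detoxification and export, 6 fell. These were the carbonyl reductase *Cbr3* (log2 fold change -2.52), *Osgin1* (-2.37), the glutathione conjugate exporter *Abcc1* (-1.32), *Pir* (-1.25), the transporter *Abcc4* (-1.07) and *Trim16* (-0.78), with adjusted p from 0.00494 to 0.0306 in limma. *Trim16* was below 1 FPKM in every knockout library and reached the filter through the controls alone. Of the 9 genes of heme and iron, only the heme transporter *Slc48a1* passed (log2 fold change -1.57, adjusted p = 0.0216 from limma), besides *Hmox1* described above.

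**Figure D4:**
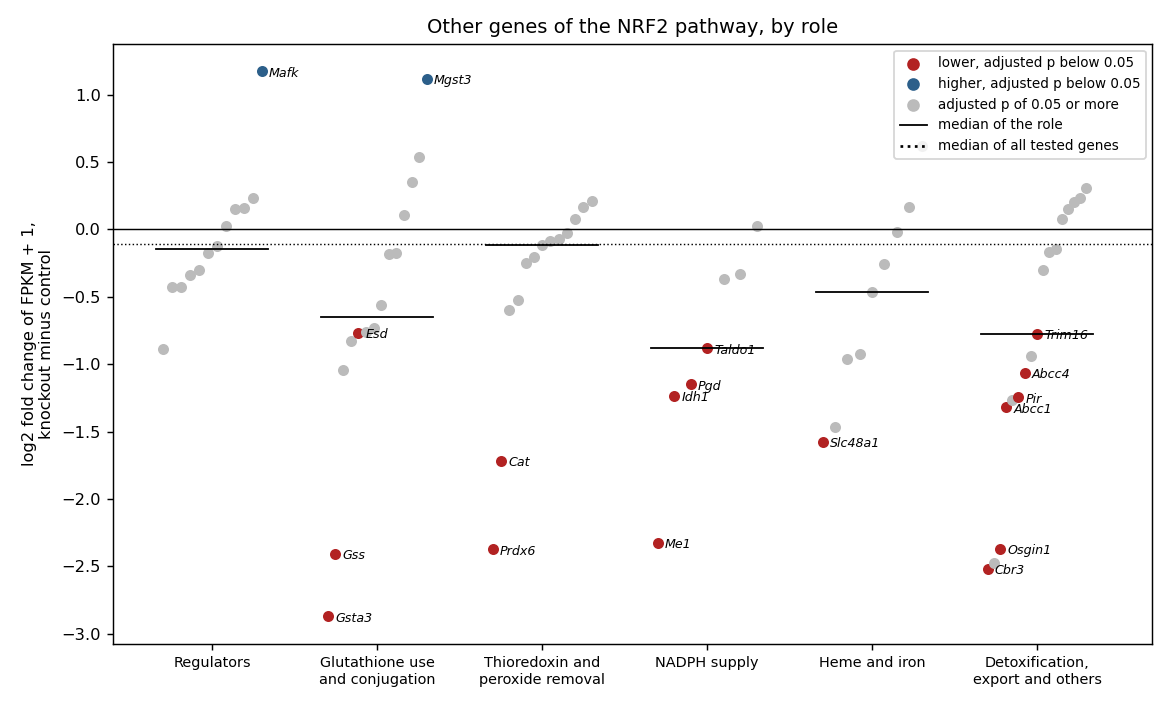
Log2 fold change of FPKM + 1 (knockout minus control) of the 72 other tested pathway genes by role, with red for genes lower and blue for genes higher at an adjusted p below 0.05, grey for the rest, a black line at each role's median and a dotted line at the median of all tested genes. The red points lie in every role but the regulators, and *Mafk* and *Mgst3* are the blue ones.

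The genes most like *Nqo1* over the 6 libraries were sought among 5459 genes with a mean of at least 5 FPKM. By Pearson's r of log2(FPKM + 1) they were *S100a8* (0.999), *Chpf2* (0.997), *Srxn1* (0.996), *Esd* (0.996) and *Gsta3* (0.995). Of the members, *Prdx1* took place 6, *Txnrd1* place 9 and *Gclm* place 14 in that order. For *Nfe2l2* the closest were *Gsk3b* (0.990), *Cdv3* (0.987), *Trmt112* (0.987), *Ash2l* (0.983) and *Slc35b1* (0.983), none of which passed the test between the groups. Its best placed target was *Slc7a11*, at place 971 with 0.782. These values describe likeness in 6 libraries that share 2 groups, and a difference between the groups alone makes r high.

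**Figure D5:**
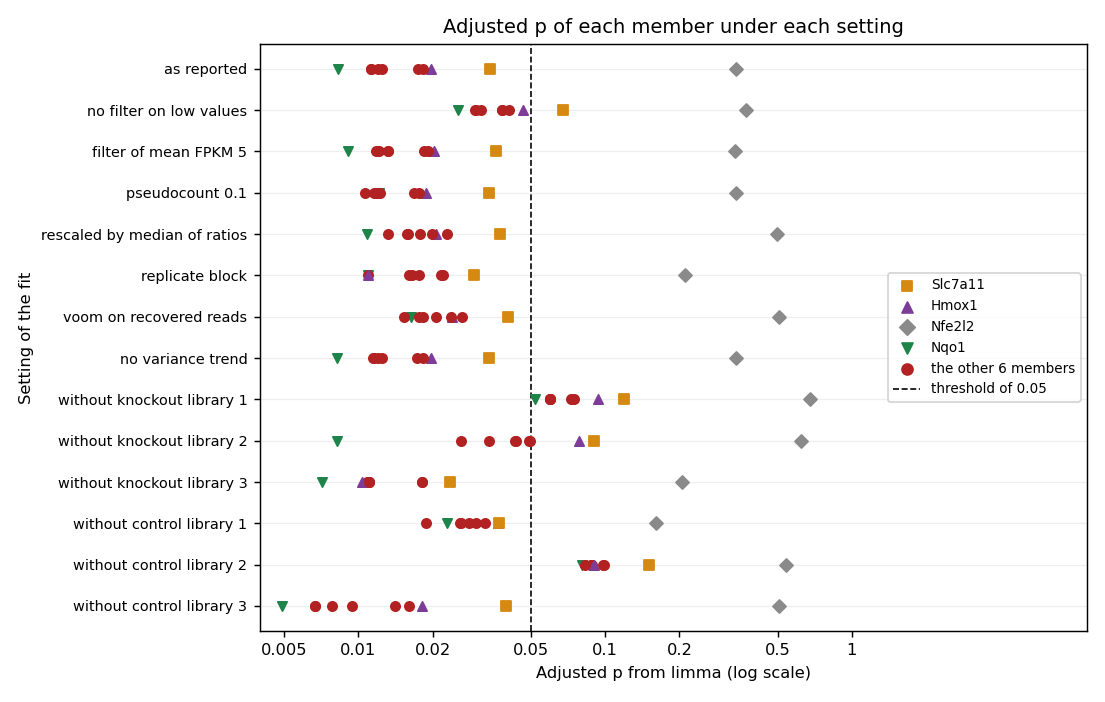
Adjusted p from limma (log scale) of each of the 10 genes under each setting of the fit, with the threshold of 0.05 as a dashed line. The 9 targets lie left of the line except without knockout library 1 and without control library 2, where all of them lie right of it, and for *Slc7a11* without the filter and *Slc7a11* and *Hmox1* without knockout library 2.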

How the data were processed

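The libraries were grouped by title. The authors deposited 1 table of genes whose mean of normalized reads over all libraries was above 1. The authors scaled the reads of each gene by its length and the library size to give FPKM for each library. Its signal columns are the authors' group means of reads divided by DESeq2 size factors. Also deposited are the ratio (fold change) of the groups, the same as log2, and a p-value with its q-value, all from the authors' comparison and left unused. The submitters' processing notes name build mm9; aligner and counter are not given in the sources used here.

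Log2(FPKM + 1) was fitted with limma 3.58.1 (R 4.3.3; lmFit, eBayes with trend) for 9030 genes whose mean reached 1 FPKM in the knockout or the control libraries; p-values were adjusted (Benjamini-Hochberg) over all of these, with a threshold of 0.05. The fit was tested on simulated reads. The FPKM and the group means gave back whole reads (within 0.02 of a whole number) for 100% of values below 200 reads in each library. The members, lists and rule for named genes (all members, *Timd4*, *Lyz2*, pathway genes past the threshold with *Keap1*, *Bach1* and *Mafg*, and the 5 genes most like *Nfe2l2* and *Nqo1*) were chosen with earlier results of these data known; *G6pdx*, *Maff*, *Eid3* and the named markers were added to these. The correlation of same-numbered libraries, taken on deviations from the group mean, was 0.109, 0.110 and 0.304 (numbers 1, 2 and 3), each over 0.1, which by the rule used makes them pairs, although no label says so and knockout library 2 correlated more with control library 1 (0.291) than with control library 2.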

Additional observations from a re-analysis of the deposited data

How the results depend on the processing

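Leaving out 1 library at a time gave 0 to 9 of the 10 members, 0 to 24 of the other pathway genes (against 18) and 8 to 1333 of all genes (against 660) past the threshold. With 1 library left out, the group of 2 is assumed to vary like the other. The number of all genes past the threshold was 436 with a minimum mean of 5 FPKM, where fewer genes were tested. With the replicate number as a block, 855 genes, 9 members and 23 other pathway genes passed, and the block changed no call of a member. The pseudocount of 0.1, the rescaling, voom on recovered reads and the fit without a variance trend left 9 members past the threshold, and the fit without a filter left 8. No alternative turned the direction of any member. The cause of the loss of calls without knockout library 1 or control library 2 was not tested. The members had at least 123 reads in every library.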
